A study of Mus musculus with 7 samples.

Results

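Collagen, matrix and scar genes were followed in mouse brain 3 days after a transient stroke. The set holds 35 genes chosen by their symbol in the array files: 5 fibrillar collagens, 4 basement membrane collagens, 5 other collagens, 9 matrix glycoproteins, 3 small leucine-rich proteoglycans, 4 genes for cross-linking enzymes and a collagen chaperone, 4 brain proteoglycans of the lectican family, and the growth factor gene Tgfb1. All 35 were on the array, through 49 probes, among 31076 names in all, and all 35 passed the filter on dim probes that left 23287 features for testing. The probe used for each member was well above background on all 7 arrays.

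Each of 7 male C57BL/6N brain samples was read on its own one-colour Agilent array. The labels give 3 wild type samples at day 3 after middle cerebral artery occlusion of 60 min, 3 Pla2g2e -/- samples at day 3 after the same occlusion, and 1 sham-operated wild type sample. Pla2g2e encodes a secreted phospholipase A2 and was deleted in the knockout; the labels do not say how, and give neither ages nor the part of the brain taken. The treatment field of the sham sample carries the occlusion text of the other samples. Nothing in the labels says that replicates came from separate animals, so the p-values below rest on a spread between samples that may be technical only. The question the design poses is how the day 3 brain differs between the genotypes, with the sham sample as the uninjured reference.

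Fibrillar collagens form the tensile fibres of connective tissue and scars, and in the brain they are made mainly by meningeal and perivascular fibroblasts. Basement membrane collagens line the vessels and the brain surface, where they form a sheet together with laminins, nidogens and perlecan. The neural tissue itself holds little fibrous collagen: its matrix is built of hyaluronan, lecticans, link proteins and tenascins, which form perineuronal nets. After a stroke, fibroblast-like and vascular cells are known to lay down collagen and fibronectin around the lesion, and transforming growth factor beta is a known inducer of many of these genes.

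Levels below are log2 values of processed signal over the 75th percentile of its own array, so 1 unit is a doubling of signal; levels of different probes are not compared with each other. The array labelled wild type day 3 replicate 1 stood apart from the rest: over all features it correlated with the other 6 arrays at 0.857 to 0.916, and the other pairs, those with sham included, correlated at 0.968 to 0.991. Over all features sham was thus closer to the remaining day 3 arrays than wild type replicate 1 was. Whether the labels of these 2 arrays are right, or were exchanged, was not tested; both labels are kept, and "wild type replicate 1" and "sham" below stand for the arrays so labelled. All wild type samples, sham included, shared 1 slide, and a second slide carried the knockout samples, so any effect of the slide cannot be told apart from that of genotype. The targeted gene was dim; its brighter probe read -6.89, -3.68 and -3.36 on wild type replicates 1 to 3, -4.69 on sham and -4.44, -5.83 and -4.97 on knockout replicates 1 to 3, so wild type replicate 1 lay below every knockout array. Whether this probe lies in the deleted part is not stated, so it does not check the labels. Because of these values, group comparisons that rest on wild type replicate 1 are given with and without it.

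On wild type replicate 1, 30 of the 35 members were below all 6 other arrays. Among all features 34.4% were, and 43.9% were above all 6. Only Acan, Bcan and Ncan among the members were above all 6, and Col6a1 and Col6a2 fell among the others. Between this array and the median of the 5 remaining day 3 arrays, the median difference was -2.75 over the members and 0.15 over all features. The sham array was below those 5 day 3 arrays for 20 members, against 24.9% of all features, and above them for 1 member, against 21.8%. In bulk tissue, fewer cells of a type and less RNA per cell cannot be told apart, and this holds for every value below.

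**Figure D1:**
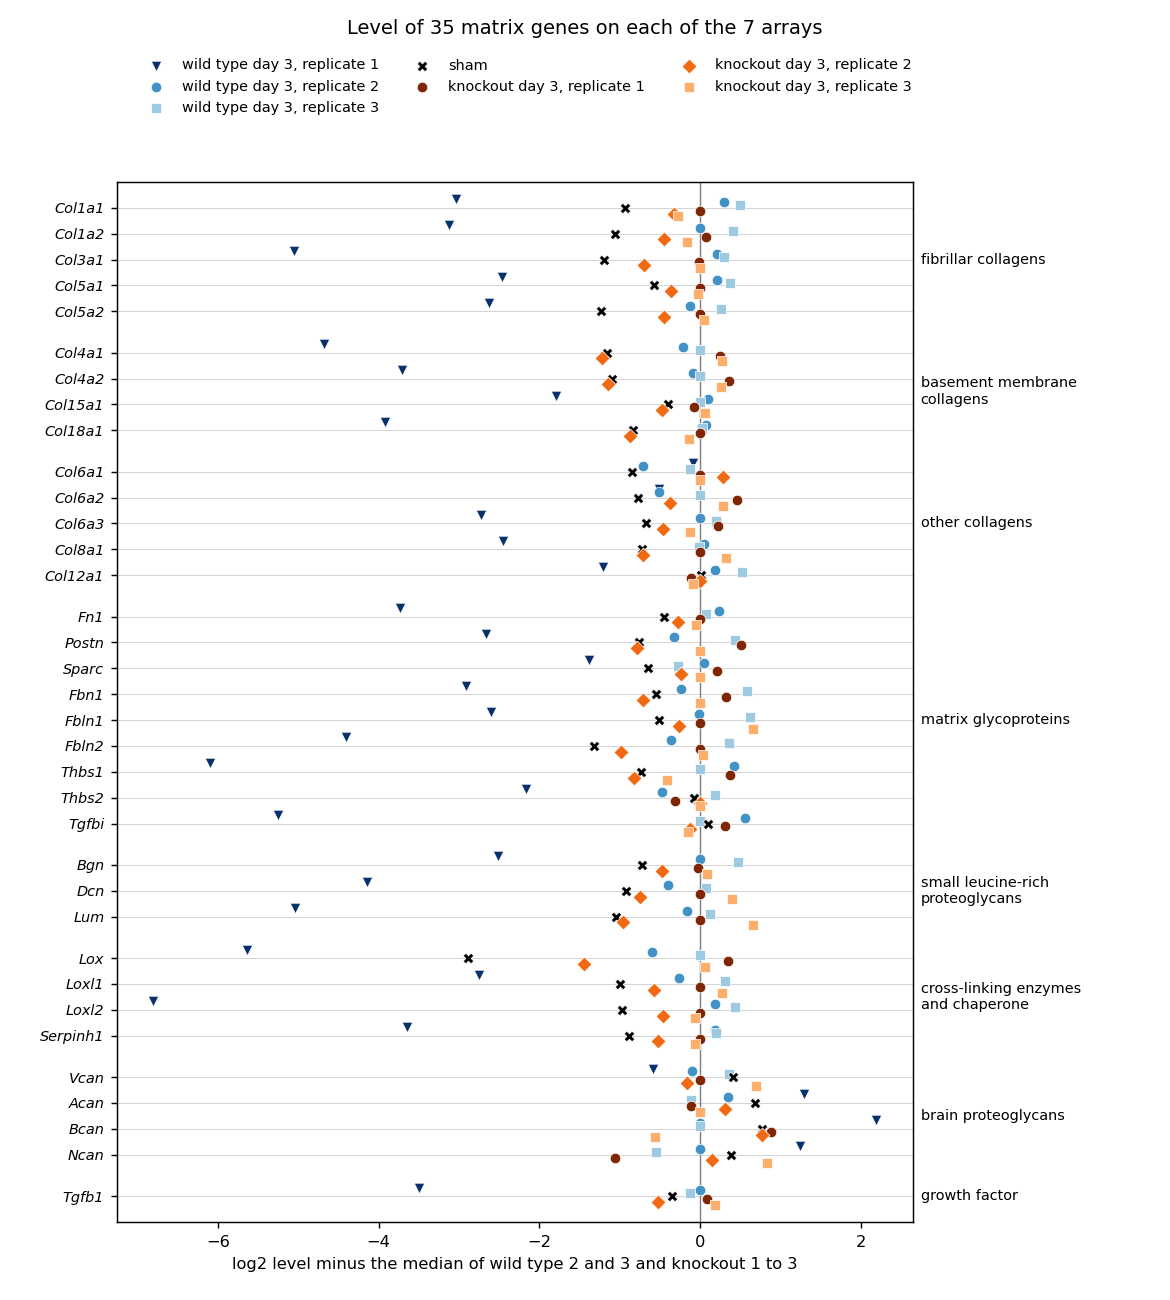
Log2 level of each of the 35 genes (rows, grouped by role) on each of the 7 arrays, as the difference from the gene's median over wild type replicates 2 and 3 and the 3 knockout arrays (x axis, log2 units; each symbol is 1 array, set slightly apart in height for legibility). Wild type replicate 1 lies to the left of all other arrays for 30 genes, by most for Loxl2, and to the right for Acan, Bcan and Ncan; the sham array lies to the left of the 5 arrays for 20 genes.

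The 5 fibrillar collagen genes were highest on average on wild type replicates 2 and 3, somewhat lower on the knockout arrays, lower again on sham and by far the lowest on wild type replicate 1. Col1a1, the main chain of type I collagen (probe at chr11:94813115-94813174, + strand, mm9), read -0.52, 2.81 and 3.01 on wild type replicates 1 to 3, 1.58 on sham, and 2.51, 2.19 and 2.24 on knockout replicates 1 to 3. Its partner chain Col1a2 read 1.47, 4.59 and 5.0 on wild type, 3.53 on sham and 4.67, 4.14 and 4.42 on knockout. Both chains placed the arrays in nearly one order, with wild type replicate 1 lowest, sham next and wild type replicate 3 highest.

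Col3a1, the chain of type III collagen that accompanies type I in early scars, read -1.94, 3.32 and 3.41 on wild type, 1.92 on sham and 3.10, 2.41 and 3.11 on knockout. Its level on wild type replicate 1 was 33.0-fold below the median of the 5 other day 3 arrays, against 8.17-fold for Col1a1. The type V chains, which set the diameter of type I fibres, behaved alike, with smaller distances to wild type replicate 1. Col5a1 read -2.69, -0.01 and 0.15 on wild type, -0.79 on sham and -0.23, -0.58 and -0.25 on knockout, and Col5a2 read -5.29, -2.79 and -2.40, then -3.89, then -2.66, -3.11 and -2.61.

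For all 5 fibrillar genes the sham value lay below each of the 5 remaining day 3 arrays, by 0.57 (Col5a1) to 1.23 (Col5a2) against their median. For Col1a1, Col3a1 and Col5a1 every knockout array lay below both wild type replicates 2 and 3. Knockout replicate 2 was the lowest knockout array for all 5. Col3a1 and Col5a2 are neighbours on chromosome 1 in the RefSeq table, yet their distance to wild type replicate 1 differed: -5.05 from the median of the 5 arrays for Col3a1 and -2.63 for Col5a2.

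The basement membrane collagens separated the arrays differently, since knockout replicate 2 was as low as sham. Col4a1 and Col4a2 encode the chains of the type IV collagen network of vessel walls. Their genes lie head to head on chromosome 8, with annotated start sites 21 bases apart on opposite strands, and their promoter windows (250 bases before to 50 after the start, from RefSeq, build GRCm38.p6) share 78 bases, chr8:11312777-11312854. Both windows are shown because the chains moved together across the arrays, with the shared bases in capitals; Col4a1 is chr8:11312777-11313076 on the - strand and Col4a2 is chr8:11312555-11312854 on the + strand, each 5′ to 3′.
Col4a1: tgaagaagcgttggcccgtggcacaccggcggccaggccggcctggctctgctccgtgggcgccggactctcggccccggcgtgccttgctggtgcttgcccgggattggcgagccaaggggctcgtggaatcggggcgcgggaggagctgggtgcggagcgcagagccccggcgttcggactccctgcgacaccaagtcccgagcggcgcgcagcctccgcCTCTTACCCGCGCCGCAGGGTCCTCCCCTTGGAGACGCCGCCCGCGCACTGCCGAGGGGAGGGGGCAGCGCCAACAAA
Col4a2: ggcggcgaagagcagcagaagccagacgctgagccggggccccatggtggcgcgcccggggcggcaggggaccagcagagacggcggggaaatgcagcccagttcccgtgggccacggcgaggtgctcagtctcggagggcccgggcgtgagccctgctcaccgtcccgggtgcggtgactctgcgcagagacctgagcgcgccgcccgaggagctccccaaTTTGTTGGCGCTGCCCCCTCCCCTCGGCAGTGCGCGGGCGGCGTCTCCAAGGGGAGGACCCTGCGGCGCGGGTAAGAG

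Col4a1 read -1.34, 3.13 and 3.33 on wild type replicates 1 to 3, 2.17 on sham and 3.58, 2.11 and 3.61 on knockout replicates 1 to 3. Col4a2 read -0.74, 2.88 and 2.97 on wild type, 1.87 on sham and 3.32, 1.82 and 3.23 on knockout. In both genes knockout replicates 1 and 3 were the highest arrays, and knockout replicate 2 lay just below sham.

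Col18a1, whose C-terminal fragment is endostatin, read -1.15, 2.84 and 2.79 on wild type, 1.93 on sham and 2.77, 1.91 and 2.64 on knockout, so its 3 knockout values were all below wild type replicates 2 and 3, the first by a small gap. Col15a1, a related basement membrane collagen, was the dimmest of this group on its probe and read -7.43, -5.54 and -5.64, then -6.03, then -5.71, -6.11 and -5.57. None of the 4 genes had sham below all 5 remaining day 3 arrays, and all 4 had it between knockout replicate 2 and the rest.

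Type VI collagen, a beaded filament network around cells and vessels, was split: Col6a1 and Col6a2 were the members whose level on wild type replicate 1 fell within the range of the other arrays, and Col6a3 was not. Col6a1 read 1.90, 1.28 and 1.87 on wild type, 1.15 on sham and 1.99, 2.28 and 1.99 on knockout, with all 3 knockout arrays above all 3 wild type arrays. Col6a2 read -2.50, -2.50 and -1.99 on wild type, -2.76 on sham and -1.53, -2.36 and -1.71 on knockout, with overlap between genotypes. Col6a3 read -2.83, -0.10 and 0.09 on wild type, -0.78 on sham and 0.12, -0.56 and -0.23 on knockout, with wild type replicate 1 lowest, sham second and knockout replicate 1 highest.

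Col6a1 was the one member whose knockout arrays lay above every wild type array, against 1.88% of all features; no member had them all below, against 2.65%. Sham was below all other arrays for Col6a1 and Col6a2. The RefSeq windows of these neighbouring genes on chromosome 10 are shown because these chains differ from the other collagens on wild type replicate 1; both lie on the - strand, Col6a1 at chr10:76725995-76726294 and Col6a2 at chr10:76623581-76623880, and capitals mark matches to the motifs searched.
Col6a1: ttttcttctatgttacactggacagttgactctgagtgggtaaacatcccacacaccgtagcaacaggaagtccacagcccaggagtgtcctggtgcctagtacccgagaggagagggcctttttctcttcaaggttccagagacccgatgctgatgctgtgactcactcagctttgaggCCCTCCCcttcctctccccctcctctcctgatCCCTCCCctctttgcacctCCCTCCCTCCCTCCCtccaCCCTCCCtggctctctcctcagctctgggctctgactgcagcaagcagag
Col6a2: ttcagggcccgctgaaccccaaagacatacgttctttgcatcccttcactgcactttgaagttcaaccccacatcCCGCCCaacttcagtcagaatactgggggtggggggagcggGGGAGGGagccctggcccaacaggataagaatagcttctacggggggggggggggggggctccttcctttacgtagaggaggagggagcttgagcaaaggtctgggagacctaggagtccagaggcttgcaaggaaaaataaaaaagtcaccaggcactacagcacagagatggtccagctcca

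The motifs were the TATA box TATAAA, the box CCAAT, the GC box GGGCGG, and the C-rich run CCCTCCC, each searched on both strands, with matches allowed to overlap. Promoter windows were found for 25 of the 35 members, 29 windows in all, and CCCTCCC was in 65.5% of them against 22% of all 32851 windows in the table. The Col6a1 window held it 6 times, and the Col6a2, Col4a1 and Col4a2 windows 1 time each. The Col4a1 and Col4a2 match is the same run, within their shared bases, and counts in both windows. GGGCGG was in 65.5% of the members' windows against 35.7% of all, CCAAT in 31% against 37.4%, and TATAAA in 13.8% against 13.6%. The median GC content was 60.3% over the members' windows and 52.7% over all. A match is a run of letters, and no binding was measured.

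The remaining collagens were Col8a1, a short-chain collagen of vessel walls, and Col12a1, which decorates the surface of type I fibres. Col8a1 read -5.66, -3.16 and -3.22 on wild type, -3.92 on sham and -3.21, -3.91 and -2.89 on knockout, so sham and knockout replicate 2 shared the second lowest place. Col12a1 read -3.08, -1.68 and -1.35 on wild type, -1.85 on sham and -1.97, -1.87 and -1.95 on knockout. In Col12a1 all knockout arrays were below sham as well as below wild type replicates 2 and 3.

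All 9 matrix glycoproteins were lowest on wild type replicate 1, by 1.66-fold (Sparc) to 38.8-fold (Thbs1) below the lowest of the other 6 arrays. Fn1, fibronectin, the scaffold on which collagen is first deposited, read 1.96, 5.93 and 5.76 on wild type, 5.24 on sham and 5.69, 5.42 and 5.64 on knockout. Its groups were close apart from wild type replicate 1, with every knockout array below wild type replicates 2 and 3 and above sham. The place above sham depended on the scaling: knockout minus sham was 0.34 here and -0.04 after quantile normalization. Thbs1, thrombospondin 1, an activator of latent transforming growth factor beta, read -3.12, 3.39 and 2.97 on wild type, 2.24 on sham and 3.35, 2.15 and 2.55 on knockout.

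Tgfbi, a secreted adhesion protein induced by transforming growth factor beta, read -0.29, 5.52 and 4.96 on wild type, 5.07 on sham and 5.28, 4.84 and 4.82 on knockout. Unlike the fibrillar collagens, Tgfbi on sham lay in the middle of the day 3 values, while wild type replicate 1 was 34.5-fold below the lowest other array. Thbs2 had the same placing of sham, at -2.49 among day 3 values of -2.88 to -2.22, with wild type replicate 1 at -4.57.

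Sham was below the 5 remaining day 3 arrays for Fn1, Sparc, Fbln1 and Fbln2 among the 9. Fbln2, a fibulin of elastic fibres and vessel walls, was on sham at -1.31 from the median of the 5, the largest such distance among the 9. It read -1.74, 2.30 and 3.03 on wild type, 1.36 on sham and 2.67, 1.69 and 2.71 on knockout. Fbln1 read -2.01, 0.58 and 1.22, then 0.08, then 0.59, 0.33 and 1.26. Sparc, a collagen-binding glycoprotein also made by astrocytes and vessels, read 5.58, 7.01 and 6.69 on wild type, 6.32 on sham and 7.18, 6.72 and 6.96 on knockout.

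Postn, periostin, and Fbn1, the fibrillin of microfibrils, had knockout replicate 2 at or below sham. Postn read -3.29, -0.95 and -0.19 on wild type, -1.39 on sham and -0.12, -1.42 and -0.63 on knockout. Fbn1 read -3.75, -1.08 and -0.25, then -1.39, then -0.51, -1.54 and -0.83. The spread inside each genotype was as wide as the distance to sham in both genes.

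The 3 small leucine-rich proteoglycans, which bind collagen fibres and limit their width, all had wild type replicate 1 lowest and sham second. Dcn, decorin, read 1.43, 5.17 and 5.64 on wild type, 4.64 on sham and 5.57, 4.82 and 5.97 on knockout. Lum, lumican, its neighbour on the chromosome, read -1.93, 2.95 and 3.24, then 2.07, then 3.11, 2.16 and 3.77. Bgn, biglycan, read -2.04, 0.47 and 0.94, then -0.25, then 0.44, 0.00 and 0.56. In Dcn and Lum knockout replicate 3 was the highest array of all, and knockout replicate 2 lay just above sham.

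The cross-linking enzymes and the chaperone included the widest differences of the whole set. Lox, lysyl oxidase, which starts the covalent cross-linking of collagen and elastin, read -7.36, -2.32 and -1.72 on wild type, -4.61 on sham and -1.37, -3.16 and -1.65 on knockout. Sham was 7.42-fold below the median of the 5 remaining day 3 arrays for Lox, where the next largest such fold among the members was 2.48 (Fbln2). Loxl2, a family member that cross-links type IV collagen, read -4.62, 2.37 and 2.62 on wild type, 1.22 on sham and 2.19, 1.73 and 2.13 on knockout.

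Loxl2 on wild type replicate 1 was 112-fold below the median of the 5 remaining day 3 arrays, the largest such fold among the members. Serpinh1, the chaperone HSP47 that folds procollagen, read -0.73, 3.10 and 3.11 on wild type, 2.03 on sham and 2.91, 2.40 and 2.85 on knockout. Loxl1, which acts on elastin, read -2.15, 0.34 and 0.91, then -0.39, then 0.60, 0.02 and 0.88. All 3 knockout arrays were below wild type replicates 2 and 3 for Loxl2 and Serpinh1, and the groups overlapped for Lox and Loxl1.

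The brain proteoglycans ran the other way or barely differed. Bcan, brevican, a lectican of astrocytes and perineuronal nets, read 4.63, 2.44 and 2.43 on wild type, 3.20 on sham and 3.32, 3.21 and 1.88 on knockout. Ncan, neurocan, read 1.26, 0.01 and -0.53 on wild type, 0.40 on sham and -1.04, 0.16 and 0.84 on knockout. For both genes wild type replicate 1 was the highest array and the 3 knockout arrays covered a wider range than wild type replicates 2 and 3.

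Acan, aggrecan, the lectican that marks perineuronal nets, read -4.08, -5.03 and -5.49 on wild type, -4.69 on sham and -5.49, -5.07 and -5.38 on knockout. On the probes used, it was the only member with sham above all 5 remaining day 3 arrays. Vcan, versican, which is also made by oligodendrocyte precursors and fibroblasts, read -1.37, -0.88 and -0.43, then -0.37, then -0.78, -0.95 and -0.09, so it was lowest on wild type replicate 1 by a fold of 1.34 only.

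**Figure D2:**
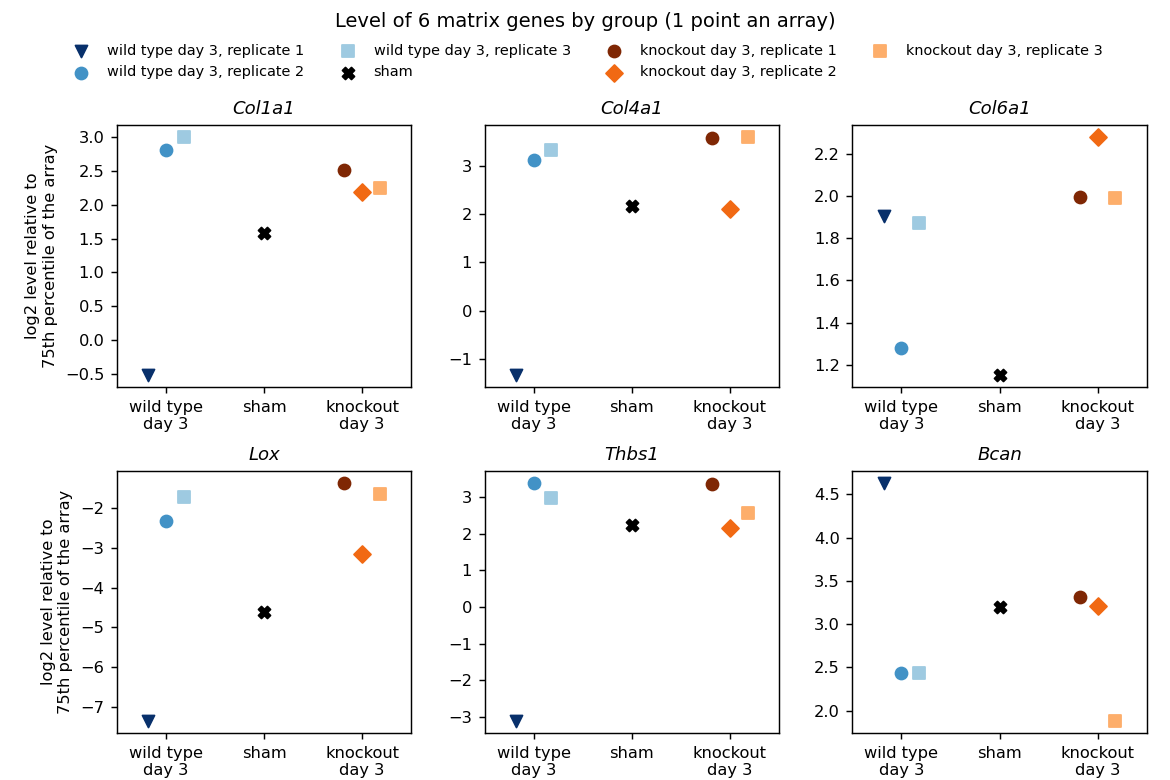
Level of Col1a1, Col4a1, Col6a1, Lox, Thbs1 and Bcan by group (y axis, log2 of signal over the 75th percentile of its array; each point is 1 array; each panel has its own y scale, and Col6a1 spans the smallest range). Wild type replicate 1 is the lowest array in 4 panels, is 4.63 and the highest in the Bcan panel, and lies among the others for Col6a1.

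Tgfb1, the ligand of the pathway, read -3.86, -0.37 and -0.50 on wild type, -0.72 on sham and -0.28, -0.88 and -0.18 on knockout. Its sham value lay within the day 3 values, and wild type replicate 1 was 7.89-fold below the lowest of the other 6 arrays. Of 15 other genes of the pathway (ligands, receptors, latent binding proteins, Smads and the target Ctgf), 11 were lowest on wild type replicate 1, against 34.4% of all features, and 8 had sham below the 5 remaining day 3 arrays, against 24.9%. Tgfbr1, a receptor of the pathway, read -0.81, 0.66 and 0.55 on wild type, -1.43 on sham and 0.54, 0.38 and 0.74 on knockout, so for this gene sham and not wild type replicate 1 was the lowest array.

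No member passed the test between knockout and wild type at day 3. With all 7 arrays in limma, 0 of 23287 features (0%) had a Benjamini-Hochberg adjusted p under 0.05, 196 (0.842%) had an unadjusted p under 0.05, and none of these was a member. The smallest adjusted p of a member was 0.862. The differences, knockout minus wild type, were above 0 for 32 members and below 0 for 3, where 46.9% and 53.1% of all features were. Their median was 0.73 against -0.03 over all features.

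Those signs rested on wild type replicate 1. Without it, 27 members were below 0 and 8 above (49.7% and 50.3% of all features), and 28 members had the opposite sign. The median was -0.17 over the members and 0.00 over all features. Again 0 features (0%) passed, and 379 (1.63%) had an unadjusted p under 0.05, among them 2 members. Col1a1 was -0.59 ± 0.16 (SE; limma, unadjusted p = 0.0167, adjusted p = 1.00) where it had been 0.55 ± 0.98 with all arrays, and Col12a1 was -0.41 ± 0.16 (unadjusted p = 0.0469).

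Compared array by array, 8 members had all 3 knockout values below wild type replicates 2 and 3, against 5.33% of all features: Col1a1, Col3a1, Col5a1, Col18a1, Col12a1, Fn1, Loxl2 and Serpinh1. Col6a1 had all 3 above, against 6.31%. The basement membrane pair Col4a1 and Col4a2 differed by -0.13 ± 0.52 and -0.13 ± 0.51 without wild type replicate 1, and Lox by -0.04 ± 0.61. In the lecticans the difference ranged from -0.05 (Acan) to 0.37 (Bcan). None of these differences had an adjusted p under 0.05 in limma.

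**Figure D3:**
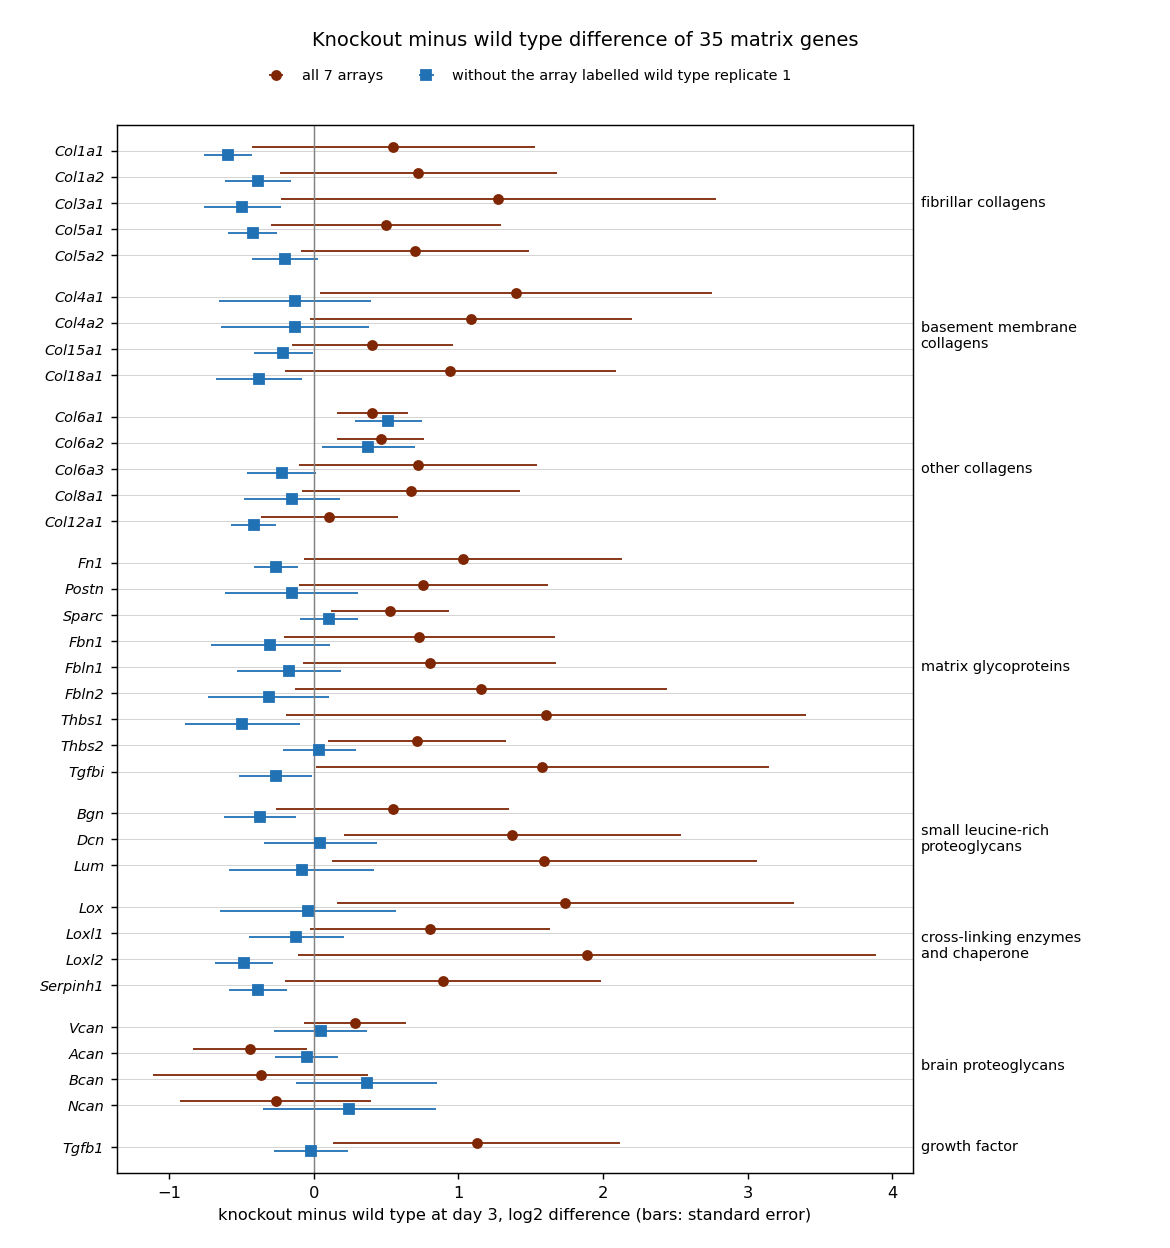
Knockout minus wild type difference at day 3 for each of the 35 genes (x axis, log2; bars are standard errors from limma), with all 7 arrays (circles) and without the array labelled wild type replicate 1 (squares). With all arrays 32 genes lie above 0; without that array 27 lie below 0 and the bars are shorter, while Col6a1 and Col6a2 stay above 0.

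Against sham, no member passed either. With all arrays, 3 of 23287 features (0.0129%) passed for wild type and 3 (0.0129%) for knockout, none of them a member. Both comparisons use the single sham array, whose spread is borrowed from the other groups. For wild type minus sham 9 members were above 0 and 26 below (54.1% and 45.9% of all features), a split that was 14 and 21 after another background correction (normexp). For knockout minus sham 28 were above 0 and 7 below (50.4% and 49.6%). The medians were -0.17 (0.03 over all features) and 0.64 (0.00 over all features). At an unadjusted p under 0.05 there were 0 members for wild type, against 1.12% of features, and 1 for knockout, against 1.31%: Col6a1 at 0.94 ± 0.35.

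Every knockout array was above sham for 20 members, against 28.5% of all features, and every one was below it for Col12a1 and Acan, against 25.8%. All 3 wild type arrays were above sham for Col6a1 and Col6a2, against 16.7%, and below it for Vcan, against 11.1%. The wild type counts again turned on wild type replicate 1, which was below sham for the 30 members that were lowest on it.

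Without wild type replicate 1, wild type minus sham was above 0 for 30 members and below 0 for 5 (50.7% and 49.3% of all features), with a median of 0.82. Still none passed (6 features did, 0.0258%), and 10 members had an unadjusted p under 0.05 against 4.51% of features: the 5 fibrillar collagens, Fn1, Bgn, Lox, Loxl2 and Serpinh1. The fibrillar collagens were 0.86 to 1.45 above sham, Col1a1 by 1.33 ± 0.22 (SE; limma, unadjusted p = 0.00212, adjusted p = 0.725). Lox was 2.59 ± 0.81 above sham and Loxl2 1.28 ± 0.27.

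In the same fit 8 members of the knockout comparison had an unadjusted p under 0.05, against 4.91% of features, and none passed (8 features did, 0.0344%). Col1a1 was 0.74 ± 0.21 above sham there, Col5a2 1.09 ± 0.29 and Lox 2.55 ± 0.77, with a smallest adjusted p of 0.712 among the members. The basement membrane genes were also above sham, at 0.24 to 0.93 in knockout and 0.45 to 1.06 in wild type, but with unadjusted p from 0.0806 upward. The group means of all 4 lecticans were below sham in both, with medians of -0.41 in knockout and -0.61 in wild type. On the probes used, single knockout arrays were not all below sham, except for Acan. Bcan read 3.32 and 3.21 on knockout replicates 1 and 2 against 3.20 on sham. The other Bcan probe differed, with every knockout array below sham. It read 0.66 on sham, -0.69, 0.27 and -1.40 on knockout, and -0.76 on both wild type replicates 2 and 3. Knockout replicate 3 was above sham for Ncan and Vcan. With all 7 arrays normexp turned Acan (0.07) and Bcan (0.02) above 0 in wild type minus sham.

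The median SD of the members inside a group was above that of features at large. Within the wild type group it was 1.71 over the members and 0.508 over all features, and for wild type replicates 2 and 3 alone it was 0.273 and 0.105. Within the knockout group it was 0.399 and 0.252. Knockout replicate 2 was the lowest of the 3 knockout arrays for 28 members, against 46.7% of all features, including all fibrillar and basement membrane collagens. Wild type replicate 3 was above replicate 2 for 24 members, against 49.5%, including all fibrillar collagens, all 3 small leucine-rich proteoglycans and all 4 cross-linking and chaperone genes.

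Genes that work with the members are read here against the shares of all features given above, 34.4% lowest on wild type replicate 1 and 24.9% with sham below the 5 remaining day 3 arrays. Of 12 laminin, nidogen, perlecan and agrin genes, 10 were lowest on wild type replicate 1, 5 had sham below the 5 remaining day 3 arrays, and all 12 had knockout replicate 2 lowest among the knockout arrays. Of 14 collagen-modifying enzymes, 12 were lowest on wild type replicate 1 and 9 had sham below. All 7 collagen and fibronectin receptors were lowest on wild type replicate 1. Sham was below the 5 arrays for 5 of them and above for 2, where 21.8% of all features had it above. None of these genes passed the test in any of the comparisons.

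Of 22 collagen chains outside the set, 9 were lowest and 8 highest on wild type replicate 1, near the shares of all features (34.4% and 43.9%). Col7a1, of anchoring fibrils, followed the members, at -0.68, 2.90 and 3.01 on wild type, 1.64 on sham and 2.83, 2.22 and 2.64 on knockout. Col25a1, a membrane collagen of neurons, went the other way, at -1.92, -3.76 and -3.74, then -2.56, then -3.27, -3.10 and -3.22. Of 11 link protein, tenascin and other proteoglycan genes, 6 were highest on wild type replicate 1 (all features 43.9%) and 8 had sham above the 5 remaining day 3 arrays (all features 21.8%), while Tnc, the tenascin of injury, read -8.35 there (not well above background) against -1.78 to -0.96 on the 5 and -2.76 on sham.

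Markers of the cells that make or border on this matrix differed by cell type. All 8 endothelial markers were lowest on wild type replicate 1 and all 8 had sham below the 5 remaining day 3 arrays; their summed signal, over the 75th percentile, was 13.1, 71.0 and 70.2 on wild type, 35.2 on sham and 79.4, 42.4 and 83.4 on knockout. Of the 8 pericyte and smooth muscle markers 7 were lowest on wild type replicate 1 and 1 was highest there. None had sham below the 5 arrays, and their sums were 7.35, 33.3 and 33.2, then 27.1, then 25.4, 27.4 and 33.9. Fibroblast and meningeal markers were lowest on wild type replicate 1 in 4 of 7, and sham was below the 5 arrays in 2 and above them in 1 (an eighth, Dpt, was not well above background on any array), with sums of 7.35, 18.3 and 27.8 on wild type, 15.0 on sham and 22.6, 11.6 and 32.3 on knockout.

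Knockout replicate 2 was the lowest knockout array for all fibrillar and basement membrane collagens, but the highest for Col6a1 and Col12a1. Of 22 collagen chains outside the set, 7 were lowest on it, against 46.7% of all features. Its sum was the lowest of the knockout sums in the endothelial, fibroblast, choroid plexus and red blood cell lists. For pericytes, microglia and astrocytes the lowest was on knockout replicate 1, and for neurons and oligodendrocytes on knockout replicate 3. Opposite to the endothelial markers, all 7 neuronal markers were highest on wild type replicate 1, with sums of 147, 31.5 and 30.0 on wild type, 43.6 on sham and 19.7, 43.1 and 14.0 on knockout. Of the 8 microglia and macrophage markers 6 were lowest and 2 were highest on wild type replicate 1. Their sums were 45.0, 115 and 102, then 120, then 105, 115 and 116. Astrocyte sums were 28.1 to 60.2 and oligodendrocyte sums 56.3 to 137 over the 7 arrays, without one array apart, and choroid plexus sums were 0.382 to 3.20, with wild type replicate 3 highest. Red blood cell sums were 0.234 on wild type replicate 1 and 0.227 on sham, against 1.20 to 4.89 on the other 5. The part of these markers in the values of the matrix genes was not tested.

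**Figure D4:**
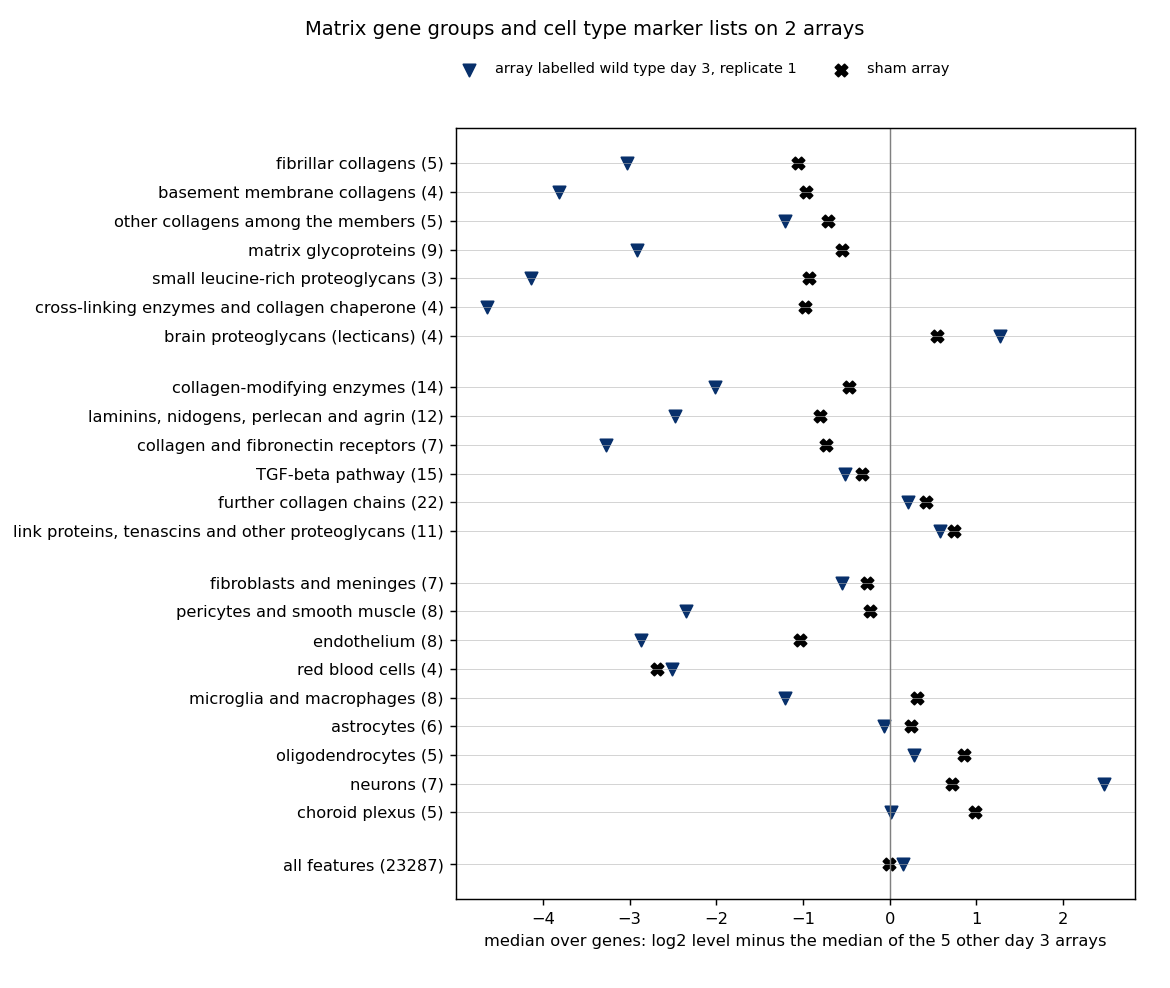
Median over the genes of each list (rows; number of genes in parentheses) of the log2 difference from the gene's median over the 5 remaining day 3 arrays, for the array labelled wild type replicate 1 (triangles) and the sham array (crosses). The collagen, glycoprotein, small proteoglycan and cross-linking groups and the endothelial and pericyte lists lie left of 0 on both arrays, by more on wild type replicate 1. Lecticans, further collagen chains, link proteins and tenascins, neuronal, oligodendrocyte and choroid plexus lists lie right of 0 on both.

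Where a member had more than 1 probe, most probes agreed on whether wild type replicate 1 was the lowest or the highest array. The order of the other arrays could differ between probes, as for Bcan. All 3 Loxl2 probes, both Col18a1 probes, both Loxl1 probes, both Fbln1 probes and both Lox probes were lowest on wild type replicate 1, and both Bcan probes were highest there. The probe used for Vcan and another of its 3 were lowest there, and the dimmest, well above background on 4 arrays, was not, at -6.74 against -7.51 to -6.61 on the others. The dimmest of 3 Sparc probes was not lowest there either and read -2.60, -2.74 and -3.72 on wild type, -3.28 on sham and -2.15, -3.22 and -2.67 on knockout. The other Col15a1 probes and the second Col12a1 probe were not well above background on most or all arrays and add nothing.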

How the data were processed

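From each of 7 brain samples 100 ng of total RNA was amplified with a Low Input Quick Amp kit (labels' protocols). Spot intensity values were deposited as output of Agilent Feature Extraction 11.5.1.1, background-subtracted and detrended within each array, per the file headers. The deposited value table is on a linear ratio scale and equals the processed signal over the 75th percentile of its array to within 0.0428%; its column medians were 0.0863 to 0.0976, and it was used as an alternative. Of 43020 non-control spots an array, 72.5% to 79.1% passed the scanner software's flag for well above background and none was saturated. Arrays give no counts, so their number limits the precision.

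The processed signal was taken to log2, less the 75th percentile of the array. Outlier spots were dropped, which removed 28 of 39429 probes; repeated spots were averaged (10 for Col4a1 and Tgfb1). A probe was kept if that flag was set on 3 or more of the 7 arrays, and the brightest stood for its gene name. Groups came from the sample titles. Tests used limma 3.58.1 in R 4.3.3 (lmFit, eBayes) on the 3 groups, two-sided, with 4 residual and 1.68 prior degrees of freedom, Benjamini-Hochberg adjustment over 23287 features and a threshold of 0.05. An exact permutation test of 3 arrays against 3 cannot go below 0.1, so none was run. The fit was checked on simulated data with 200 genes changed in knockout against wild type. At the spread of all arrays it recovered 0%, 37.3% and 68.2% of changes of 1, 2 and 4 log2 units. Without wild type replicate 1 the shares were 8.96%, 53.7% and 71.2%. Changes of 1 log2 unit were thus mostly missed. Promoter windows were searched in Python. Every member is named; of the further lists, at most 4 genes in each direction and comparison, by smallest p. Members, lists and the choice to leave out wild type replicate 1 were made with earlier results of these data known. Alternatives were normexp (offset 50), quantile normalization, other filters and probe rules, the value table, leaving out arrays, the replicate block and array weights. Positions of probes are on mm9, from the files. Of the transforming growth factor beta list, 1 gene is not reported here and was left out of its counts.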

Additional observations from a re-analysis of the deposited data

How the results depend on the processing

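No member passed the threshold in any comparison under any alternative run, so the number of members called was 0 throughout. For knockout against wild type, 0 features passed under each alternative except array weights, which gave 2; for wild type against sham and for knockout against sham the 3 features became 0 with normexp, with quantile normalization, with probes required on all 7 arrays, with only the groups compared and with the replicate block, and 146 and 95 with array weights, whose estimation did not fully converge and which gave wild type replicate 1 a weight of 0.0513. Leaving out 1 array at a time gave 0 to 6 features for wild type against sham and 0 to 8 for knockout against sham, with the upper value without wild type replicate 1 in both. The median difference of the members ranged from -0.17 to 1.40 for knockout minus wild type when 1 array was left out, from -0.73 to 0.82 for wild type minus sham and from 0.52 to 0.80 for knockout minus sham. Only leaving out wild type replicate 1 turned the first (to -0.17, also without sham) and the second (to 0.82). Array weights turned the second to 0.70 and brought the first to 0.03. The samples share replicate numbers, and same-numbered deviations from the group means correlated at -0.38, -0.56 and 0.35. All wild type deviations carry wild type replicate 1 through the group mean, so these values cannot show whether the numbers pair samples. As a block the numbers gave medians of 0.73, -0.91 and -0.36 and no call. Normexp shifted the median of all features by 0.10 and 0.11 in the sham comparisons. The chief limits are 3 arrays a group, a single sham array, 1 array that stands apart, labels of that array and of sham that may be wrong, and a slide that coincides with genotype.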
